A study of Mus musculus with 30 samples.

Results

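The inhibin, activin and follistatin genes examined here are 9 in number, chosen by gene symbol from the 50600 rows of the deposited expression table. They are Inha, Inhba and Inhbb (the hormone subunits), Fst and Fstl3 (binding proteins), Acvr1b, Acvr2a and Acvr2b (receptors) and Tgfbr3 (betaglycan). All 9 were found, and all 9 had a mean of at least 5 normalized counts over the mice, the minimum for testing, which 14646 genes met. The samples were 30 whole ovaries from 15 female C57BL/6 mice. In the DSS group, 7 mice had received 3% dextran sodium sulfate, an agent that injures the gut lining and causes colitis, in the water they drank for 7 days while sexually immature. The control group was 8 littermates. Ovaries were taken once the mice were sexually mature, left and right as separate libraries, giving 7 left and 7 right DSS ovaries and 8 left and 8 right control ovaries. Where an ovary stands out it is named by its title, which joins the group, a library number, the mouse and the side, and a mouse by the title of one of its ovaries. The labels name no other agent or allele and give no age or cycle stage. RNA was measured by CEL-Seq, which counts reads from the 3' ends of transcripts. The mouse was the unit of replication throughout.

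Inhibins and activins are dimers built from shared subunits and made in the ovary mainly by granulosa cells, the somatic cells around the oocyte. The alpha subunit (Inha) joined to a beta subunit (Inhba or Inhbb) gives inhibin A or inhibin B, and beta subunits joined to each other give the activins. Activin from the pituitary or ovary stimulates release of follicle-stimulating hormone (FSH) and signals through a type 2 receptor (Acvr2a, Acvr2b) and the type 1 receptor Acvr1b to Smad2 and Smad3. Inhibin lowers FSH release: it occupies type 2 receptors, with betaglycan as co-receptor, and forms no signalling complex. Follistatin and its relative Fstl3 bind activin and keep it from its receptors. Because whole ovaries were ground up, fewer cells of a type and less RNA per cell cannot be told apart in any value below.

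The genes lie on mouse build GRCm38, with ends as the deposited table gives them. Inha (ENSMUSG00000032968.4) is at chr1:75507077-75510666, Inhba (ENSMUSG00000041324.13) at chr13:16011851-16027511, Inhbb (ENSMUSG00000037035.5) at chr1:119415165-119422248 and Fst (ENSMUSG00000021765.7) at chr13:114451962-114458730. Fstl3 (ENSMUSG00000020325.10) is at chr10:79777272-79782930 and Tgfbr3 (ENSMUSG00000029287.14) at chr5:107106270-107289629. Of the receptors, Acvr1b (ENSMUSG00000000532.10) is at chr15:101174067-101213979, Acvr2a (ENSMUSG00000052155.5) at chr2:48814109-48903569 and Acvr2b (ENSMUSG00000061393.14) at chr9:119402118-119435295. The deposited span reaches 300 bases past the 3' end of the GENCODE M21 annotation for 6 of them, and a similar distance for Fst and Acvr1b. For Inhba it stops 4110 bases short of the M21 3' end, so reads from ends beyond that point are not within the span that the table lists for Inhba. Its level is therefore compared between ovaries and not against the level of Inhbb as a number of molecules.

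Inhba and Inhbb encode beta subunits that the results below show moving together from ovary to ovary, and the 250 bases before their starts are printed for that reason. The sequences are RefSeq start-site windows on GRCm38.p6, which held 7 of the 9 genes, all but Fst and Tgfbr3. They run 5′ to 3′ on the coding strand, the plus strand at chr13:16011601-16011850 for Inhba and the minus strand at chr1:119422249-119422498 for Inhbb. Capitals mark the letters TATAAA, the core of a TATA box.
Inhba: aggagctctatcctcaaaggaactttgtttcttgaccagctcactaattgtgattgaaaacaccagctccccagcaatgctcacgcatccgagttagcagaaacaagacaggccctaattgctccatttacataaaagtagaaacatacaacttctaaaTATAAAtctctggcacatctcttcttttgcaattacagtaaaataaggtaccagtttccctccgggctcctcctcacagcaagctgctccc
Inhbb: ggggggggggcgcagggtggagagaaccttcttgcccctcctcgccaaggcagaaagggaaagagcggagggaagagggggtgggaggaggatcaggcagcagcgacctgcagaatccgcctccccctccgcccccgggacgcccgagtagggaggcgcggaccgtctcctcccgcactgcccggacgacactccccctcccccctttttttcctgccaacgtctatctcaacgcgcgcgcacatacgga
The windows differ in composition: 43.2% of the Inhba letters were G or C against 68% of the Inhbb letters, with a median of 52.4% over 32851 mouse windows of the same length. TATAAA, searched on both strands, was in 2 of the 7 windows of these genes, those of Inhba and Fstl3, and in 12.4% of all windows. In Inhba it lay 91 to 86 bases before the start. TGACGTCA (the cAMP response element), its shorter variant TGCGTCA, the core bound by NR5A receptors (AAGGTCA) and the GATA core AGATAA were in 0 of the 7 windows and in 1.55%, 1.75%, 4.08% and 9.99% of all windows. These are matches of letters within a short window. The RefSeq window of Inha lies inside the span that the deposited table lists for Inha. That of Acvr2b reaches past the listed start, and those of Acvr1b and Fstl3 do so by only a few bases. For these genes the letters before the listed start were not, or not fully, the ones searched.

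Inha was the most heavily read of the 9 genes. Its normalized count, a read count divided by a library's size factor, ran from 5022 to 15504 over the 30 ovaries with a median of 12098. Inhbb ran from 1609 to 5982 (median 3570) and Inhba from 172 to 1215 (median 518), the widest range of the 9 at 7.08-fold. Among the receptors Acvr2a was read most, from 629 to 1300 with a median of 1033, and Tgfbr3 ran from 191 to 329 with a median of 262.2. The remaining 4 were low: Fst ran from 48.0 to 164 with a median of 111, Acvr1b from 18.6 to 111 (median 58.5), Fstl3 from 27.9 to 88.9 (median 49.9) and Acvr2b from 13.6 to 48.4 (median 29.9). Counts of different genes depend on which 3' ends fall within the span listed for each, and are not ranked as transcript numbers. Reads on the opposite-strand neighbour Orc4, which overlaps Acvr2a, and on Gm43423, which overlaps Tgfbr3 on the same strand, averaged 94.4 and 42.9 normalized counts; whether the counting used strand is not given in the sources used here. Counting error alone was 0.91% of the value for Inha and 4.18% for Inhba, but 9.48% for Fst, 12.9% for Acvr1b, 13.8% for Fstl3 and 17.9% for Acvr2b, so small differences in the last 4 were not detectable at this depth. Libraries held 3095386 to 8564770 reads.

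**Figure D1:**
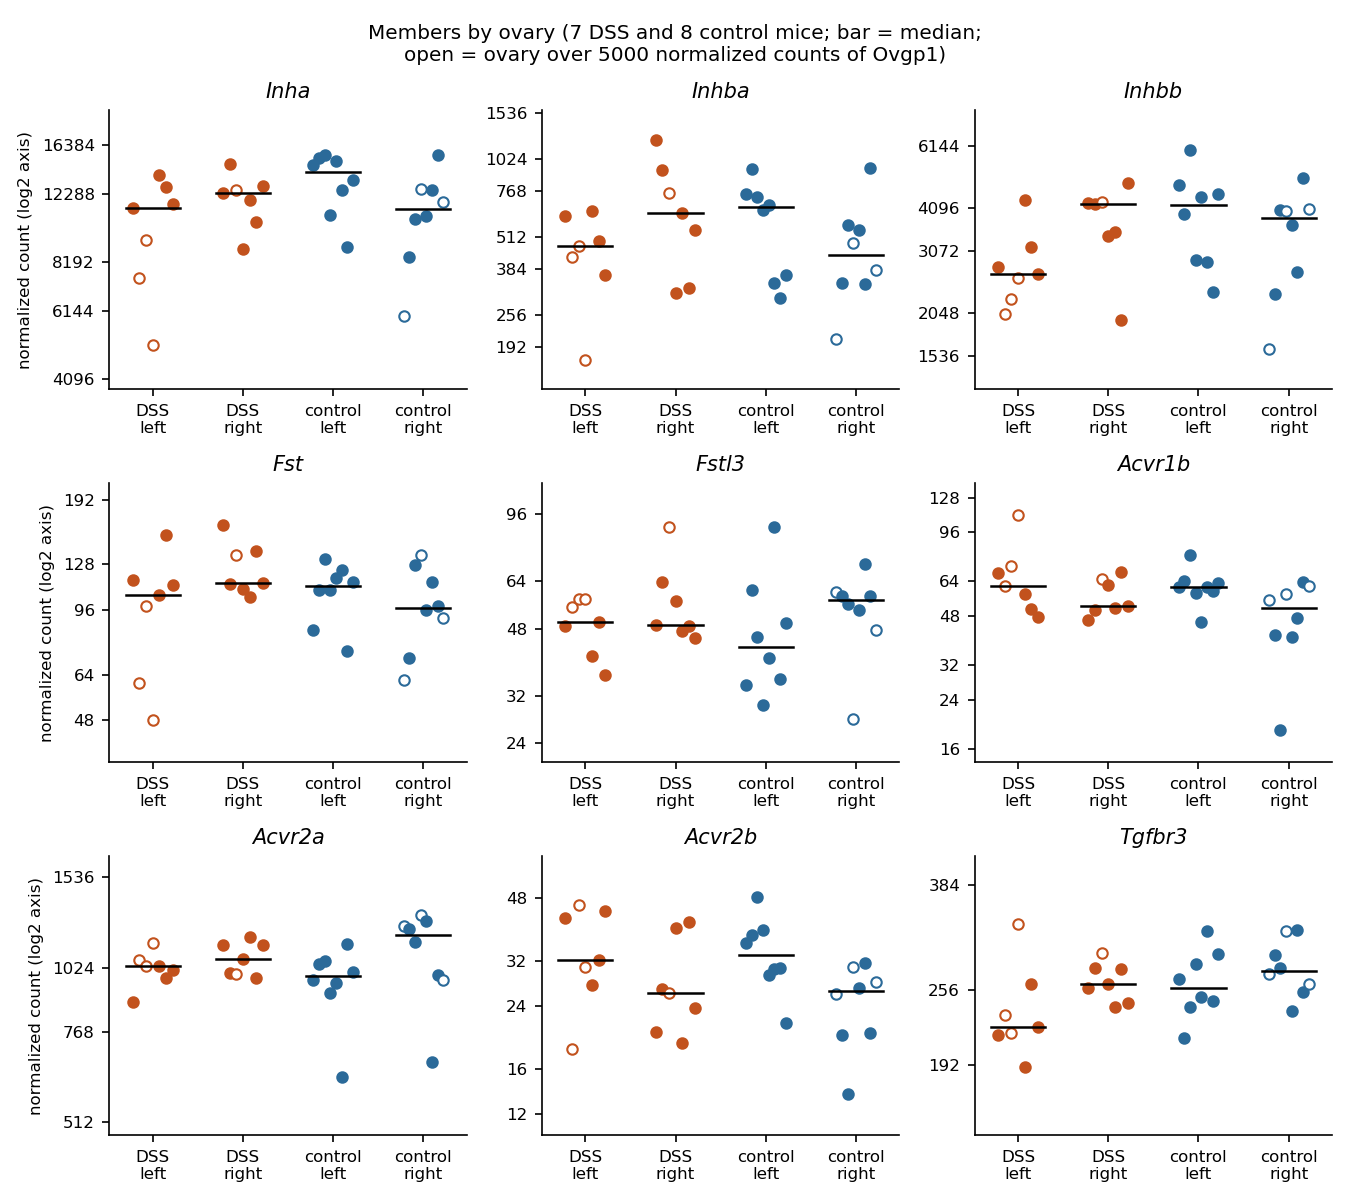
Normalized count (log2 axis) of the 9 genes in each ovary, with 7 DSS and 8 control mice, left and right ovaries apart; bars are medians and open circles are the 7 ovaries with over 5000 normalized counts of Ovgp1. DSS and control ovaries overlap in every panel, and Inhba spreads from 172 to 1215.

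Prior DSS treatment was not followed by a detectable change in any of the 9 genes. In limma on log2(normalized count + 1) of mouse means, 0 of 9 passed an adjusted p of 0.05 and 0 of 9 had an unadjusted p under 0.05. Over all 14646 genes 0% were called: 0 by limma, with 1169 at an unadjusted p under 0.05, against 6 by edgeR and 52 by DESeq2, and neither of those tools called one of the 9. Of the 9 differences, 6 were above 0 and 3 below, with a median of 0.03 against 0.00182 for all tested genes.

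Among the subunits, Inha was 6930 in the lowest DSS mouse, 11611 in the median and 12820 in the highest, and 10259, 12379 and 13038 in the control mice. The ranges overlapped, and 1 of 7 DSS mice lay above the control median. The means were 11062 ± 1933 (SD, n = 7) and 12133 ± 882 (SD, n = 8), a log2 difference of -0.15 ± 0.10 (SE, 95% interval -0.37 to 0.06, limma adjusted p = 0.722). Without the 7 ovaries rich in the oviduct transcript Ovgp1, described below, the difference was -0.09. Inhbb was 3290 ± 460 (SD, n = 7) against 3687 ± 725 (SD, n = 8), from 2556 to 3897 in DSS mice and from 2774 to 5012 in controls, with a log2 difference of -0.15 (SE 0.11, limma adjusted p = 0.750). Inhba gave the least certain estimate. It ran from 242 through a median of 614 to 917 in DSS mice and from 338 through 591 to 648 in controls, so the DSS group held both the lowest and the highest mouse. Its log2 difference was 0.01 with an interval of -0.46 to 0.48 (limma adjusted p = 0.993).

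The binding proteins, which set how much activin is free, were close between the groups. Fst was 113 ± 25.1 (SD, n = 7) in DSS mice and 104 ± 19.6 (SD, n = 8) in controls, with ranges of 78.8 to 147 and 73.3 to 130, and a log2 difference of 0.11 (SE 0.14, limma adjusted p = 0.871). For Fstl3 the log2 difference was 0.08 (SE 0.16, limma adjusted p = 0.922), with mice from 40.9 to 73.1 after DSS and from 29.1 to 79.9 in controls.

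Of the 9 genes, Tgfbr3 and Acvr2a had the smallest standard errors. Acvr2a, which had more reads than Acvr2b, was 1044 ± 50.7 (SD, n = 7) and 1032 ± 161 (SD, n = 8), a log2 difference of 0.03 with an interval of -0.16 to 0.23 (limma adjusted p = 0.946). Its wider control spread came from the mouse of control_351_15.3_left, at 650 against 986 to 1131 in the other controls. Tgfbr3 was 252 ± 26.5 and 272 ± 27.6, with a log2 difference of -0.11 (interval -0.27 to 0.04, limma adjusted p = 0.720). For Acvr1b the difference was 0.16 (SE 0.11, limma adjusted p = 0.729) and for Acvr2b 0.07 (SE 0.12, limma adjusted p = 0.903).

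**Figure D2:**
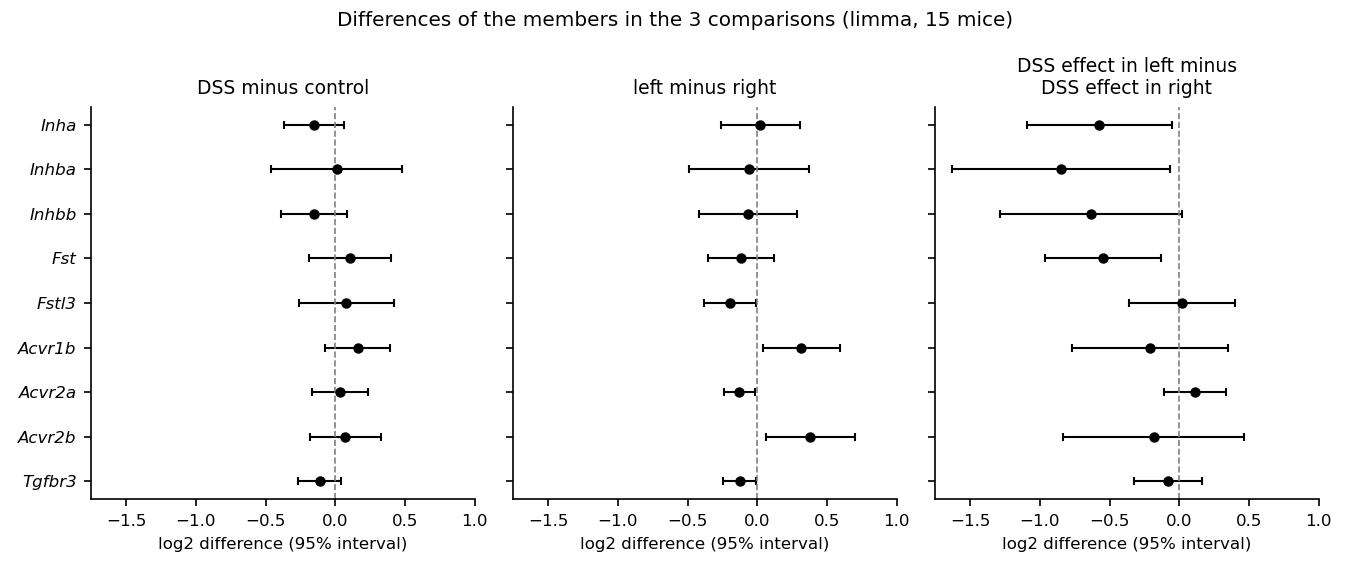
Log2 differences of the 9 genes with 95% intervals from limma over 15 mice, for DSS minus control, left minus right, and the DSS effect in left ovaries minus that in right ovaries. In the first panel each interval includes 0; in the third Inha, Inhba, Inhbb and Fst lie between -0.55 and -0.85.

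The balance of subunits was compared between mice and ovaries as ratios of normalized counts, which are not ratios of molecules. For DSS against control each gene was averaged over both ovaries of a mouse before the ratio was taken, so these ratios still depend on the size factors, whereas a ratio within 1 library does not. Inha over Inhba was 21.6 ± 6.39 (SD, n = 7) in DSS mice and 24.0 ± 7.14 (SD, n = 8) in controls, Inha over Inhbb 3.39 ± 0.648 and 3.38 ± 0.580, and Inha over both beta subunits together 2.89 ± 0.526 and 2.94 ± 0.502. The beta subunits stood at 0.171 ± 0.0598 for Inhba over Inhbb after DSS and at 0.148 ± 0.0353 in controls. Fst over both beta subunits was 0.0299 ± 0.00930 and 0.0251 ± 0.00622, the ratio with the lowest p, and 6 of 7 DSS mice lay above the control median. By an exact permutation test that enumerated each way to divide the 15 mice (two-sided), its log2 difference of 0.23 had p = 0.232, and the adjusted p over the 5 ratios was 0.847. The other adjusted values were 0.847 to 0.999. The closest estimate was that of Inha over Inhbb, at 0.00026 on the log2 scale with an exact interval of -0.29 to 0.28. Left minus right within mice, the log2 differences were 0.081 for Inha over Inhba, 0.090 for Inha over Inhbb and 0.0095 for Inhba over Inhbb. They were 0.087 for Inha and -0.057 for Fst over both beta subunits. By an exact sign-flip permutation test (two-sided) the adjusted p over the 5 ratios were 0.798 to 0.931. Between ovaries the ratios were far from fixed: over the 30 libraries Inha over Inhba ran from 10.1 to 37.4 and Inhba over Inhbb from 0.0665 to 0.287.

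**Figure D3:**
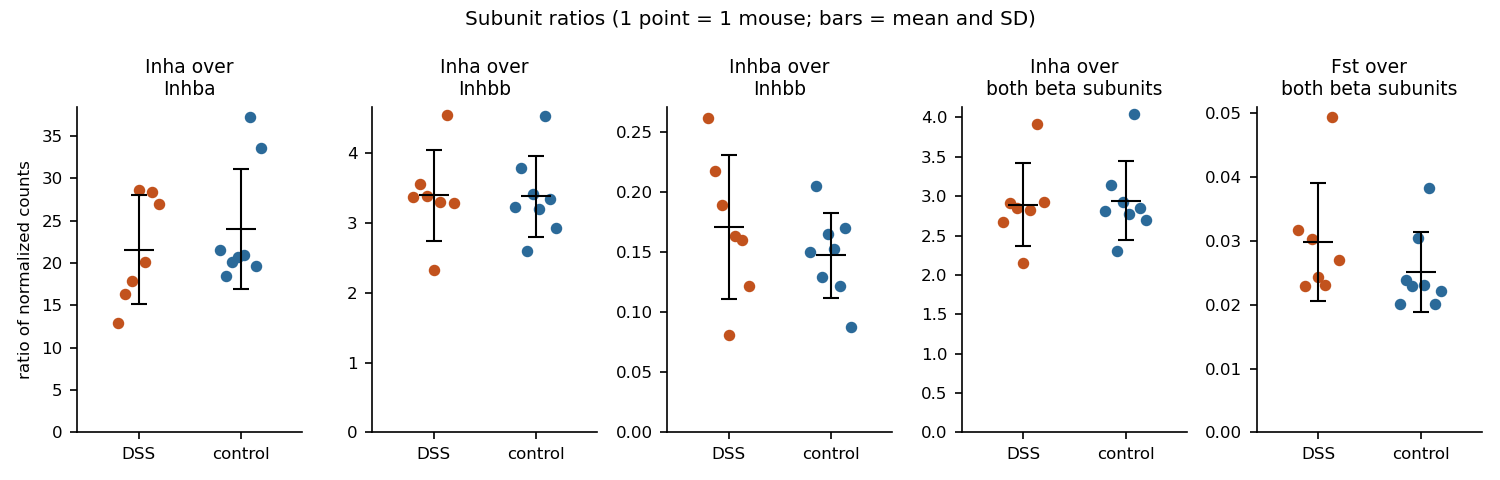
Ratio of normalized counts of each mouse, both ovaries averaged, for 5 pairs or sums of subunits; points are 7 DSS and 8 control mice and bars give the mean and SD. The groups overlap in each panel, and the mouse of DSS_340_15.1_right stands highest for Fst over both beta subunits at 0.0495.

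Left and right ovaries were then compared within mice, with the mouse as a block. Over all genes this contrast called 1488 of 14646, or 10.2%, with 4.56% higher and 5.6% lower in the left ovary. None of the 9 genes was among them by limma, edgeR or DESeq2, although 5 of 9 had an unadjusted limma p under 0.05, as did 3464 of the 14646 genes. The subunits and Fst showed no common side: each was higher on the left in 8 of 15 mice, with log2 differences of 0.02 for Inha, -0.06 for Inhba, -0.07 for Inhbb and -0.12 for Fst.

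The 5 with an unadjusted p under 0.05 were Fstl3 and the receptors. Acvr2b, a type 2 receptor, ran from 18.2 through a median of 32.3 to 48.4 in left ovaries and from 13.6 through 26.1 to 41.3 in right ovaries, and was higher on the left in 10 of 15 mice (log2 difference 0.38, SE 0.15, limma adjusted p = 0.127). Acvr1b was higher on the left in 12 of 15 mice, at 64.1 ± 15.7 against 52.1 ± 12.7 (SD, n = 15; log2 difference 0.32, limma adjusted p = 0.147). Both estimates include the ovary control_304_11.4_right, where Acvr1b rested on 15 reads and Acvr2b on 11. Acvr2a was lower on the left in 10 of 15 mice and Tgfbr3 in 12 of 15, with log2 differences of -0.13 and -0.12 (limma adjusted p = 0.137 and 0.187). Fstl3 differed by -0.20 (limma adjusted p = 0.178). Left ovaries also carried more RNA of stratified epithelium: all 8 tested keratinocyte genes were higher on the left, 7 of 8 called, with a median of 2.18, and Krt5 was 279 ± 354 on the left against 32.2 ± 28.0 on the right (SD, n = 15). The summed keratinocyte list ran from 136 to 6535 in DSS left, 348 to 6034 in control left, 49.6 to 887 in DSS right and 73.5 to 569 in control right ovaries. With a keratinocyte score as covariate 20 genes were called and 0 of the 9 had an unadjusted p under 0.05. The log2 differences were then 0.11 for Acvr2b, 0.028 for Acvr1b and 0.071 for Acvr2a, but -0.23 for Tgfbr3 and -0.29 for Fstl3, both farther from 0 than without it. The score itself differs by side, so a fit with both estimates the side difference less precisely. The fall in the number of calls therefore cannot be read as an effect of this RNA. What part this RNA has in these differences was not tested further.

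The subunits and Fst differed instead in which ovary was higher. In DSS mice Inha was higher on the left in 2 of 7 and in control mice in 6 of 8, and the same numbers of mice held for Inhba, Inhbb and Fst. DSS left ovaries ran from 5022 to 13774 for Inha with a median of 11294, and control left ovaries from 8956 to 15459 with a median of 13955. On the right the medians were 12329 in DSS and 11235 in control ovaries. The groups overlapped on both sides. Fitted on left ovaries alone, the DSS minus control log2 difference was -0.43 for Inha and -0.47 for Inhbb (limma adjusted p = 0.484 and 0.455), and on right ovaries alone 0.15 and 0.17. In limma the DSS effect in left minus that in right ovaries was -0.57 for Inha (SE 0.25), -0.85 for Inhba (SE 0.37), -0.63 for Inhbb (SE 0.31) and -0.55 for Fst (SE 0.20). Inha, Inhba and Fst had an unadjusted p under 0.05, and none passed adjustment, with limma adjusted p of 0.542 to 0.594, and 0% of all genes were called by limma for this difference, with 1248 at an unadjusted p under 0.05 and 1 called by edgeR. For the other 5 genes the difference lay between -0.21 and 0.11.

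Oviduct RNA moved with this pattern. Ovgp1, the oviduct glycoprotein, was over 5000 normalized counts in 7 ovaries of 6 mice: DSS_255_10.4_left, DSS_291_11.2_left, DSS_297_11.1_left, DSS_298_11.1_right, control_250_10.5_right, control_328_13.4_right and control_388_16.9_right. All 9 tested oviduct genes had a difference above 0 for the DSS effect in left minus right ovaries, with a median of 2.79, and 6 of 9 had an unadjusted p under 0.05. The summed oviduct list ran from 403 to 68248 in DSS left, 170 to 10760.5 in DSS right, 171 to 556 in control left and 199 to 42708 in control right ovaries. Genes of several other cell types lay below 0: 10 of 11 granulosa genes with a median of -0.61, 10 of 11 oocyte genes (-0.30), 7 of 7 theca genes (-0.27), 7 of 8 luteal genes (-0.26) and 8 of 8 keratinocyte genes (-0.88). Of these, 6 granulosa, 2 oocyte, 1 theca, 0 luteal and 3 keratinocyte genes had an unadjusted p under 0.05. The lists were chosen with earlier results of these data known. The granulosa list holds Nap1l5 and Gja1, whose left minus right differences had r = 0.955 and 0.953 with that of Inha, group means removed. Both were among the 6, so the granulosa list cannot be taken as a measure separate from the subunits. In the remaining lists 4 of 7 adipose genes (median 0.031) and 3 of 3 pituitary genes (0.24) lay above 0, with 0 and 1 under 0.05. Lhcgr (-0.29) is in both the theca and the luteal list. Whether the lists differ from one another was not tested. In the 5 mice with such RNA in 1 ovary alone, Inha, Inhba, Inhbb and Fst were each lower in that ovary in 4 of 5, with medians of 0.568, 0.550, 0.761 and 0.732 of the other ovary. In the mouse of control_250_10.5_right, for example, Inhba was 747 on the left and 206 on the right, beside Ovgp1 of 335 and 41925. Not every gene was lower in these ovaries. Acvr2a was higher in DSS_255_10.4_left (1058 against 999 in the other ovary), DSS_291_11.2_left (1144 against 1066) and control_250_10.5_right (1236 against 971). It was also higher in control_328_13.4_right (1300 against 914), but lower in control_388_16.9_right (967 against 1004). Tgfbr3 ran both ways. Without those 6 mice the differences were -0.16 for Inha, -0.33 for Inhba, -0.24 for Inhbb and -0.22 for Fst. With the left minus right oviduct score as covariate they were -0.18, -0.37, -0.29 and -0.23. None of the 9 genes was called in either fit. Leaving out those 6 mice kept only 9, among them those of DSS_322_13.2_right (Ovgp1 of 4798) and control_304_11.4_right (3064). Whether oviduct RNA accounts for this pattern was not tested.

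**Figure D4:**
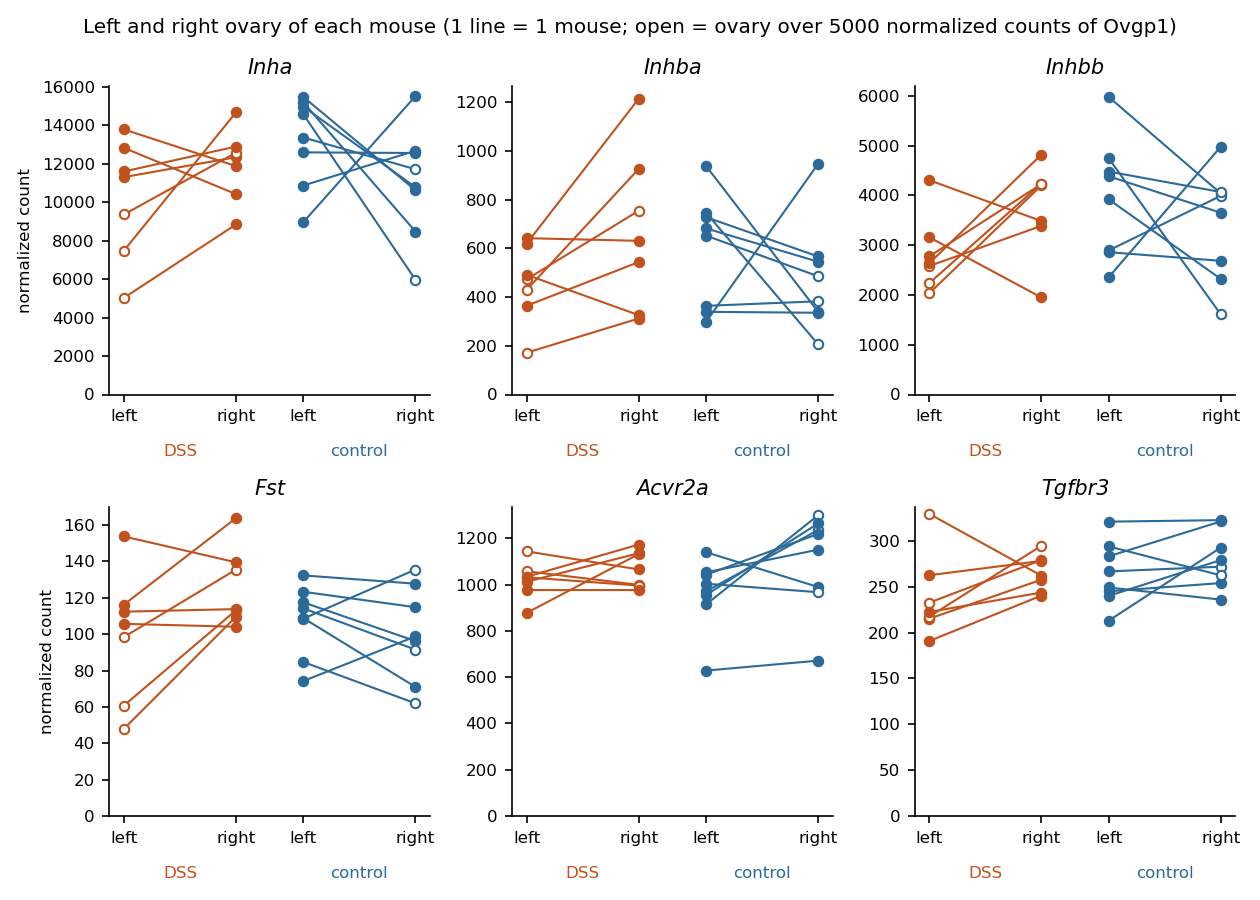
Normalized count in the left and right ovary of each mouse (1 line per mouse) for Inha, Inhba, Inhbb, Fst, Acvr2a and Tgfbr3, DSS and control mice apart; open circles are ovaries with over 5000 normalized counts of Ovgp1. Lines for the subunits are steep and run both ways, while Acvr2a stays between 629 and 1300.

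The subunits and Fst differed widely between the ovaries of a mouse. The within-mouse SD of the log2 value was 0.675 for Inhba, above 98.6% of the 7931 tested genes with a mean of at least 50, 0.553 for Inhbb (above 97.7%), 0.446 for Inha (above 96.1%) and 0.352 for Fst (above 92.0%). The median gene had 0.191. Acvr2a at 0.150 and Tgfbr3 at 0.154 lay below it. Group means were not removed for this SD, so it includes any difference between DSS and control mice in left minus right values. Acvr1b and Acvr2b, at 0.404 and 0.453, are low-count genes whose counting error adds to this spread. In the most uneven mouse for these 3 genes, that of control_250_10.5_right, the higher ovary had 3.63 times the Inhba of the lower, 2.95 times the Inhbb and 2.44 times the Inha. The median mouse differed 1.51-fold for Inhba, 1.52-fold for Inhbb, 1.34-fold for Inha and 1.12-fold for Acvr2a.

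These uneven levels went together. For every mouse the log2 value of the right ovary was taken from that of the left, group means were removed, and the results were correlated between genes, for the 6 pairs among Inha, Inhba, Inhbb and Fst and for these 4 with Amh, made by small growing follicles, and Cyp19a1, the aromatase of large follicles. This way of looking was added after the relations over mouse means had been seen. The ovary with more Inhbb was also the ovary with more Inha in 15 of 15 mice, with r = 0.895 (Spearman rho 0.875, permutation test over 15 mice with 100000 draws, adjusted p over 14 relations 4.67e-05). Inha and Inhba gave r = 0.884 (rho 0.814, permutation adjusted p = 5.6e-05) and shared a direction in 13 of 15 mice. For Inhba and Inhbb r was 0.884 (rho 0.732, permutation adjusted p = 7e-05). Fst joined them, sharing its direction with Inha and with Inhbb in 15 of 15 mice, at r = 0.848 (rho 0.811), 0.697 (rho 0.682) and 0.668 (rho 0.661) with Inha, Inhba and Inhbb, with permutation adjusted p of 1e-04, 0.00521 and 0.00934. The smallest unadjusted p that the draws can give is 1e-05.

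Cyp19a1 followed the same ovaries. It ran from 6.40 to 171 normalized counts over the 30 ovaries with a median of 50.6, and its left minus right difference had r = 0.944 with that of Inhba (rho 0.807, permutation adjusted p = 4.67e-05), 0.899 with Inha (rho 0.911) and 0.890 with Inhbb (rho 0.754). In the mouse of control_346_15.4_right Inhba was 298.05 on the left and 947 on the right, beside Cyp19a1 of 53.0 and 171. In the mouse of control_273_10.6_left the order was the opposite, with Inhba at 939 and 340 and Cyp19a1 at 128 and 43.6. By a ranking added after these values were seen, among 10884 other genes with a mean of at least 20, Cyp19a1 was the gene most like Inhba by this measure, followed by Nap1l5 (r = 0.937), Pspc1 (0.932), Jak1 (0.921) and Hsd17b1 (0.918), the last an enzyme of estradiol synthesis in granulosa cells. For Inha the leading genes were Fam13a, Serpine2 and Prkar2b, at 0.970, 0.961 and 0.960, and Inhbb and Inhba ranked 32 and 41. For Inhbb they were Trib2 (0.931), Tox2 (0.922) and Fam13a (0.916), with Inha ranked 7. For Fst they were Gab2 (0.910), Ctsl (0.897) and Cyp17a1 (0.888), with Inha ranked 21 but Inhba and Inhbb only 314 and 412. Fst itself ranked 81 for Inha, 219 for Inhba and 284 for Inhbb, so many other genes followed the beta subunits more closely.

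For Amh the relations were weaker, and 1 of 4 passed adjustment, that with Fst by Pearson's r and that with Inhbb by Spearman's rho (permutation adjusted p of 0.0651 for Fst and 0.0374 for Inhbb by rho). Whether they differ from those of Cyp19a1 was not tested. The left minus right difference of Amh had r = 0.517, 0.239, 0.471 and 0.541 with Inha, Inhba, Inhbb and Fst (rho 0.532, 0.257, 0.568 and 0.500; permutation adjusted p of 0.056, 0.391, 0.0814 and 0.0465). In the 9 mice without an ovary over 5000 normalized counts of Ovgp1 the corresponding r were -0.05, -0.09, 0.06 and -0.05. In those 9 mice the relations of Inha with Inhba, Inhbb and Fst were 0.950, 0.896 and 0.841 and those of Cyp19a1 with Inhba, Inha, Inhbb and Fst 0.944, 0.924, 0.971 and 0.791. Without the 2 mice farthest from the median of the first gene, the 10 relations that leave Amh out stayed between 0.606 and 0.885. Within DSS mice they were 0.541 to 0.917, and within control mice 0.746 to 0.989. Of the receptors, Acvr2a had r = -0.51 with both Inha and Inhba over the 15 mice, and Tgfbr3 had -0.23 and -0.22. Both genes of a pair come from the same library and share its size factor. With TMM factors the 10 relations were 0.671 to 0.945.

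**Figure D5:**
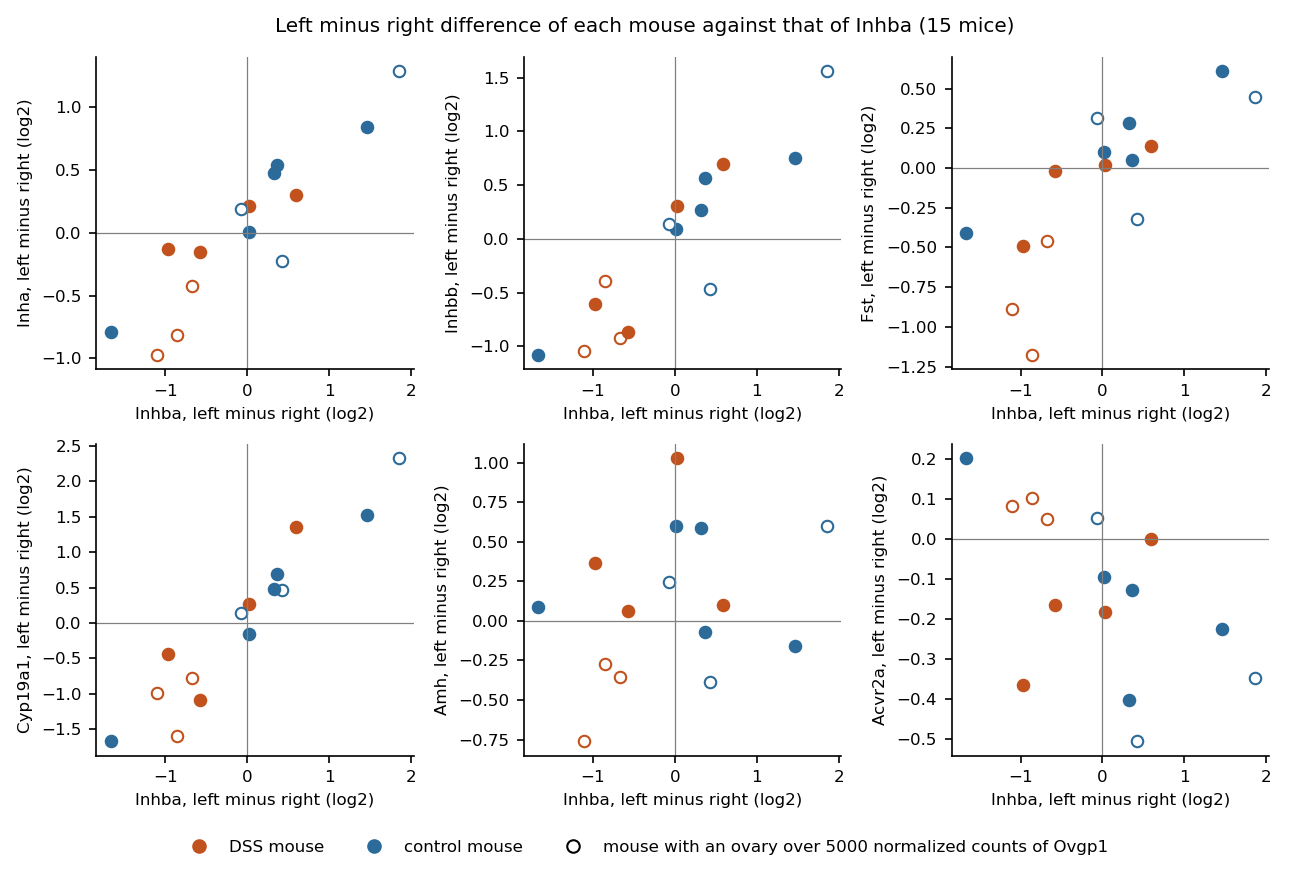
Left minus right log2 difference of each of 15 mice for Inha, Inhbb, Fst, Cyp19a1, Amh and Acvr2a (vertical axes) against that of Inhba (horizontal axis), group means not removed; open circles are the 6 mice with an ovary over 5000 normalized counts of Ovgp1. Points for Inha, Inhbb and Cyp19a1 fall along a rising line, those for Amh scatter.

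Across mice, 0 of 9 genes had a left level whose relation to the right level passed adjustment: r was -0.18 for Inha, 0.12 for Inhba, -0.32 for Inhbb and 0.42 for Fst (rho -0.43, 0.07, -0.24 and 0.48), with a median of 0.16 over the 7931 genes. Fstl3 had the highest, at 0.62 (rho 0.59, permutation test p = 0.018, adjusted over the 9 genes 0.162), and it was 0.35 without the 2 farthest mice. In the 9 mice without an ovary rich in Ovgp1, r was -0.85 for Inha and 0.85 for Fstl3. Over mouse means, 2 of 14 relations passed adjustment by Pearson's r, Inha with Fst at 0.621 (rho 0.518) and Inhba with Cyp19a1 at 0.690 (rho 0.436), each with a permutation adjusted p of 0.0357. Both rested on few mice: without the 2 farthest, r was 0.197 and 0.328, and by Spearman's rho the adjusted p were 0.355 and 0.460. The genes most like each subunit over mouse means were Prkar2b (0.931), Gja1 (0.926) and Ube2s (0.895) for Inha, Soat1 (0.904), Gch1 (0.903) and Ywhaz (0.872) for Inhba, and Erh (0.806), Tusc1 (0.802) and Timm50 (0.795) for Inhbb. For Fst they were Cdkn3 (0.882), Wipi1 (0.857) and Rad18 (0.843).

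Further parts of the pathway were taken from a list of 30 genes, of which 25 were tested. After DSS 0 of 25 were called, 10 were above 0 and 15 below, and the median was -0.05. The lowest p belonged to Smad3, which carries the activin signal to the nucleus, at 794 ± 68.2 (SD, n = 7) in DSS mice and 893 ± 54.8 (SD, n = 8) in controls, with overlapping ranges of 722 to 890 and 815 to 969 (log2 difference -0.17, SE 0.06, limma adjusted p = 0.470). Acvr1c, the type 1 receptor for Nodal and activin B, had 4.51 to 20.3 in DSS and 2.64 to 9.95 in control mice (log2 difference 0.84, limma adjusted p = 0.565), and Pcsk6, a convertase of precursor proteins, -0.15 (limma adjusted p = 0.582). Between the sides 2 of 25 were called, 1 in each direction, against 10.2% of all genes, so the list gave no larger share than the background. Smad4, the common partner of Smad2 and Smad3, was higher in the right ovary in 14 of 15 mice, at 312 ± 31.1 against 265 ± 27.5 (SD, n = 15; log2 difference left minus right -0.24, limma adjusted p = 0.00638). Fstl1, a follistatin-like glycoprotein, was higher on the left in 12 of 15 mice, at 276 ± 52.6 against 229 ± 40.7 (SD, n = 15; log2 difference 0.26, limma adjusted p = 0.0302). Zfyve9, which presents Smads to the receptor, had -0.14 (limma adjusted p = 0.169). By limma both calls ended under 4 alternatives, though the directions held. With the keratinocyte score as covariate the differences were farther from 0, at -0.31 for Smad4 and 0.32 for Fstl1 (adjusted p = 0.349 and 0.501). Without the 6 mice with oviduct RNA they were -0.18 and 0.19 (adjusted p = 0.162 and 0.306). Control mice alone gave -0.19 and 0.28 (adjusted p = 0.219 and 0.0648), and DSS mice alone -0.29 and 0.24 (adjusted p = 0.0671 and 0.379). Without a filter on low counts (0.0564) or without the mouse as a block (0.0692), and in turn without the mice of DSS_297_11.1_left (0.0524), DSS_339_15.1_left (0.0631), control_327_13.4_left (0.0506), control_333_13.5_left (0.0622) and control_351_15.3_left (0.0525), the call of Fstl1 ended as well.

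Markers of the cells that could hold these transcripts were compared beside them. Granulosa markers were present in each ovary: the 11 listed genes summed to 7775 to 11199 normalized counts. Wt1, with a mean of 3571, gave the largest part of this sum. Cyp19a1 ran from 6.40 to 171 and Fshr averaged 24.2, so the sum says little about such low markers. After DSS 0 of 11 were called and 8 of 11 lay below 0, led by Gata4 (log2 difference -0.17, limma adjusted p = 0.551), Amhr2 (-0.27, limma adjusted p = 0.565) and Hsd17b1 (-0.23, limma adjusted p = 0.629). Stratified epithelium and oviduct genes lay to one side after DSS: 8 of 8 keratinocyte genes were below 0, with a median of -1.81 and 5 of 8 at an unadjusted p under 0.05, and 9 of 9 oviduct genes were above 0, with a median of 1.01. Their part in the DSS estimates of the 9 genes was not tested beyond leaving out the oviduct-rich ovaries or taking the oviduct score as covariate, each with 0 of 9 called. Of the other lists, 4 of 7 theca, 7 of 8 luteal, 3 of 11 oocyte, 7 of 7 adipose and 1 of 3 pituitary genes were above 0, and none of these or of the oviduct and keratinocyte genes was called. Lhcgr (0.23) counts in both the theca and the luteal list. The lowest p in each of the 7 lists beside granulosa belonged to Cyp11a1 (-0.15), Onecut2 (0.46), Gdf9 (-0.22), Foxj1 (1.63), Krt14 (-2.48), Pparg (0.35) and Gh (-1.38), in the order theca, luteal, oocyte, oviduct, keratinocyte, adipose and pituitary, with log2 differences in parentheses.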

How the data were processed

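CEL-Seq libraries of 30 ovaries, each made with a pool of 3 primers as technical repeats, were read from one deposited table. Per the submitters' processing notes, TopHat, HTSeq, DESeq2 and build GRCm38.p5 were used; their settings are not given in the sources used here. The deposited signal values are the authors' normalized counts, read counts divided by a size factor per library. Dividing by each library's step gave whole reads for 99.99% or more of values above 0 (within 0.0051), and these reads served edgeR 4.0.16 and DESeq2 1.42.0 as alternatives chosen beside the main test.

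Group and side came from sample titles. The treatment text in the labels describes DSS for control samples too; the treatment label and the design text set them apart as controls, and they were taken as untreated. A mouse's ovaries were averaged for DSS against control; left against right had the mouse as a block, since both ovaries are from 1 animal. Tests used limma 3.58.1 (R 4.3.3, trend) on log2(normalized count + 1), with Benjamini-Hochberg adjustment over 14646 genes with a mean of at least 5 and a threshold of 0.05. On this scale changes of low genes are understated. Ratios had exact permutation tests, two-sided, over all splits of the mice or all sign patterns of their left and right differences, and correlations 100000 draws (Python 3.11.15, scipy 1.17.1). The 3 limma fits were tested on simulated counts with known changes. The members and lists were chosen with earlier results of these data known. Genes named were the 9 members, Amh and Cyp19a1, Ovgp1 and Krt5, the 3 genes of each list with the smallest p, and the 3 genes most like each of Inha, Inhba, Inhbb and Fst over mouse means among 10885 genes with a mean of at least 20. Genes named by likeness of left minus right differences were chosen after their values were seen. Libraries held a median of 4305814.5 reads.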

Additional observations from a re-analysis of the deposited data

Results flagged for a closer look

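In 10 of 84 groups of ovaries or mice examined, the highest or lowest value stood far from its neighbour relative to the range of the group. For a single group chance gives this in about 1 in 20. The 84 groups overlap, since mouse means reuse the values of their ovaries and the ratios share genes, so the 10 are not a count of independent findings and were not tested against that rate. Inha was lowest in the mouse of DSS_291_11.2_left, at 6930 normalized counts against 10958 in the next DSS mouse, and in the mouse of control_250_10.5_right, at 10259 against 11760 in the next control. Both mice had an ovary with over 5000 normalized counts of Ovgp1. Fstl3 was highest in DSS_298_11.1_right, at 88.7 against 63.6, and Acvr1b in DSS_291_11.2_left, at 111 against 72.9.

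Acvr2a was lowest in control_351_15.3_left, at 629 against 914 in the next left control ovary, and in the same mouse as the mean of both ovaries, at 650 against 986. The ovary DSS_340_15.1_right had the highest Inha over Inhbb (5.34 against 3.49), Inha over both beta subunits (4.57 against 2.88) and Fst over both beta subunits (0.0613 against 0.0301) of the DSS right ovaries. As a mean of both ovaries its Fst over both beta subunits was 0.0495 against 0.0317 in the next DSS mouse.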

How the results depend on the processing

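No member was called in any of 252 alternative values for DSS against control, 252 for left against right and 207 for their interaction, with lowest adjusted p of 0.455, 0.0597 and 0.303. Genes called for DSS against control, 0 in the main test, were 11 in left ovaries alone, 1 in right ovaries alone, 10 without ovaries over 5000 counts of Ovgp1, 6 by edgeR and 52 by DESeq2. With the label number before the dot, whose meaning the labels do not give, as replicate block they were 3. Leaving out 1 mouse gave 0 to 13, the latter without the mouse of DSS_339_15.1_left. For left against right, 1488 became 1163 with no replicate block, 733 without mice with an Ovgp1-rich ovary, 384 in control mice and 115 in DSS mice. With the keratinocyte score, which itself differs by side, they were 20. For the interaction 0 became 1 with quantile normalization, without Ovgp1-rich mice, with the oviduct score and by edgeR, and 0 to 2 leaving out 1 mouse. Without Ovgp1-rich mice 2 left and right likenesses passed, not 0 (Inha at r = -0.85 and Fstl3 at 0.85), and without Ovgp1-rich ovaries 0 relations over mice passed, not 2. Directions turned as follows, and the cause was not tested. For DSS against control, left ovaries alone gave -0.37 for Inhba, -0.19 for Fst, -0.010 for Acvr2b and 0.026 for Inha over both beta subunits, right ovaries alone 0.15 for Inha, 0.17 for Inhbb, -0.017 for Acvr2a and -0.020 for Inha over Inhbb, and the oviduct score -0.0043 for Acvr2a. For left minus right, the values without Ovgp1-rich mice were 0.013 for Inhbb, 0.032 for Fst, -0.061 for Inhba over Inhbb and 0.029 for Fst over both beta subunits, and those with the keratinocyte score -0.37 for Inha and 0.071 for Acvr2a. Control mice alone gave 0.34 for Inhba, 0.23 for Inhbb, 0.14 for Fst and -0.048 for Inha over Inhba, and DSS mice alone -0.28 for Inha, -0.11 for Inhba over Inhbb and 0.0053 for Fst over both beta subunits. For the interaction, Fstl3 was -0.014 with quantile normalization and -0.068 with the oviduct score, Acvr2b 0.099 with the oviduct score and Acvr2a -0.049 without Ovgp1-rich mice. The left and right likeness of Inhba was -0.10 without Ovgp1-rich mice and -0.0011 with group means kept. Over mice without Ovgp1-rich ovaries, r was -0.048 for Inha with Fst, -0.20 for Inhba with Fst and -0.20 for Inhbb with Fst, and -0.0031 for Inhbb with Cyp19a1 at pseudocount 5. For left minus right without Ovgp1-rich mice, r with Amh was -0.054 for Inha, -0.091 for Inhba and -0.051 for Fst. Leaving out 1 mouse gave, for DSS against control, -0.12 to 0.20 for Inhba, -0.027 to 0.18 for Fstl3, -0.058 to 0.056 for Acvr2a, -0.074 to 0.088 for Inha over Inhbb and -0.10 to 0.041 for Inha over both beta subunits. For left minus right it gave -0.067 to 0.094 for Inha, -0.19 to 0.057 for Inhba, -0.18 to 0.0051 for Inhbb, -0.053 to 0.052 for Inhba over Inhbb and -0.12 to 0.021 for Fst over both beta subunits. For the interaction it gave -0.062 to 0.096 for Fstl3, -0.31 to 0.023 for Acvr1b and -0.31 to 0.0011 for Acvr2b, the highest of the last pair without the mouse of control_304_11.4_right.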
